A study of Mus musculus with 6 samples.

Results

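The 29 genes described here make, import, move, store or export cholesterol, and they were chosen by name from the 45808 genes of the count table. They comprise 18 enzymes of synthesis, 4 controllers of the SREBP transcription factors, 4 genes of uptake and transport, and 3 of efflux and esterification. Their RNA was followed in 6 libraries of cultured mouse cells on the way to beige adipocytes, the heat-producing fat cells that form within white fat. All 6 libraries are labelled WT, so no mutant group enters, although the title of the series concerns Naa10p and Pgc1-alpha. The cells were the stromal-vascular fraction of inguinal white fat from male mice 8 weeks old, a mixture that holds fat progenitors beside other cells, and no source used here says how many mice gave each culture. Day 0 was the confluent culture before induction. Day 2 followed 2 days in IBMX (0.5 mM), dexamethasone (5 µM), indomethacin (125 µM), insulin (850 nM), T3 (1 nM) and rosiglitazone (1 µM), and day 6 followed a further stay in insulin, T3 and rosiglitazone alone at those doses. Each day had 2 libraries, numbered 76 and 77, and values of a day are given in that order.

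Animal cells build cholesterol from acetyl-CoA through mevalonate, farnesyl diphosphate, squalene and lanosterol, and take up more of it in lipoproteins. When sterols run low in the endoplasmic reticulum, SCAP carries the SREBP-2 precursor to the Golgi, where it is cut to an active factor that switches on synthesis and uptake genes; INSIG proteins hold the complex back when sterols are plentiful. Oxysterols, which signal excess, activate the LXR receptors, whose targets include cholesterol exporters. Adipocytes keep a large store of free cholesterol at their lipid droplets and membranes.

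Most of the pathway was higher at the later days. Levels are CPM, counts per library size scaled by TMM, and a gene counts as changed where its adjusted p passes 0.05 in edgeR's quasi-likelihood test over 14459 genes. At day 2 against day 0, 17 of the 29 genes rose, 4 fell and 8 did not pass, while 67.1% of all tested genes were called, 33.6% higher and 33.6% lower. Without library 77 of day 0, fewer of the 29 were called lower, and the median log2 change of all genes tested was 0.14 in place of 0.00. Changes at day 2 against day 0 given below without that library are to be read beside that shift. At day 6 against day 0, 22 rose, 6 fell and 1 did not pass, against a background of 70.9% called, 35.9% higher and 35.1% lower. At day 6 against day 2, 18 rose and 5 fell, against a background of 65.7% called, 38.2% higher and 27.5% lower. The share of the 29 genes that rose, 58.6%, 75.9% and 62.1% in these comparisons, was above the background share of higher calls each time. With library totals alone as the scaling, the counts at day 6 against day 2 became 17 higher and 9 lower, so that 65.4% of the calls were higher instead of 78.3%. Over all genes that scaling moved the share of calls that were higher to 37.1%, against 58.1% with TMM.

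The median log2 change of the 29 genes was 0.42 at day 2 against day 0, 0.99 at day 6 against day 0 and 0.92 at day 6 against day 2, where all genes tested had medians of 0.00, -0.01 and 0.12. With library totals the medians of all genes were 0.12, -0.26 and -0.23, and the 29 genes stood 0.42, 1.00 and 0.79 above them, against 0.42, 1.01 and 0.79 with TMM. By course, 12 genes were called higher in both steps, 5 rose by day 2 with no call after it, and 4 had no call by day 2 and were higher at day 6 than at day 2. Srebf2 and Soat1 fell in both steps, Sqle, Scap and Npc1 had no call by day 2 and fell in the later step, and Fdft1 and Mylip fell by day 2 and were higher at day 6 than at day 2. Such courses were not counted over all genes tested, so these numbers describe the 29 genes alone. A joint test of all days called 28 of the 29 genes, against 84.8% of all genes tested, and Mvk was the exception (adjusted p = 0.560 by edgeR's quasi-likelihood test). The sources used here do not say whether a day's libraries came from separate animals, so each p-value reflects only how far these libraries spread.

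**Figure D1:**
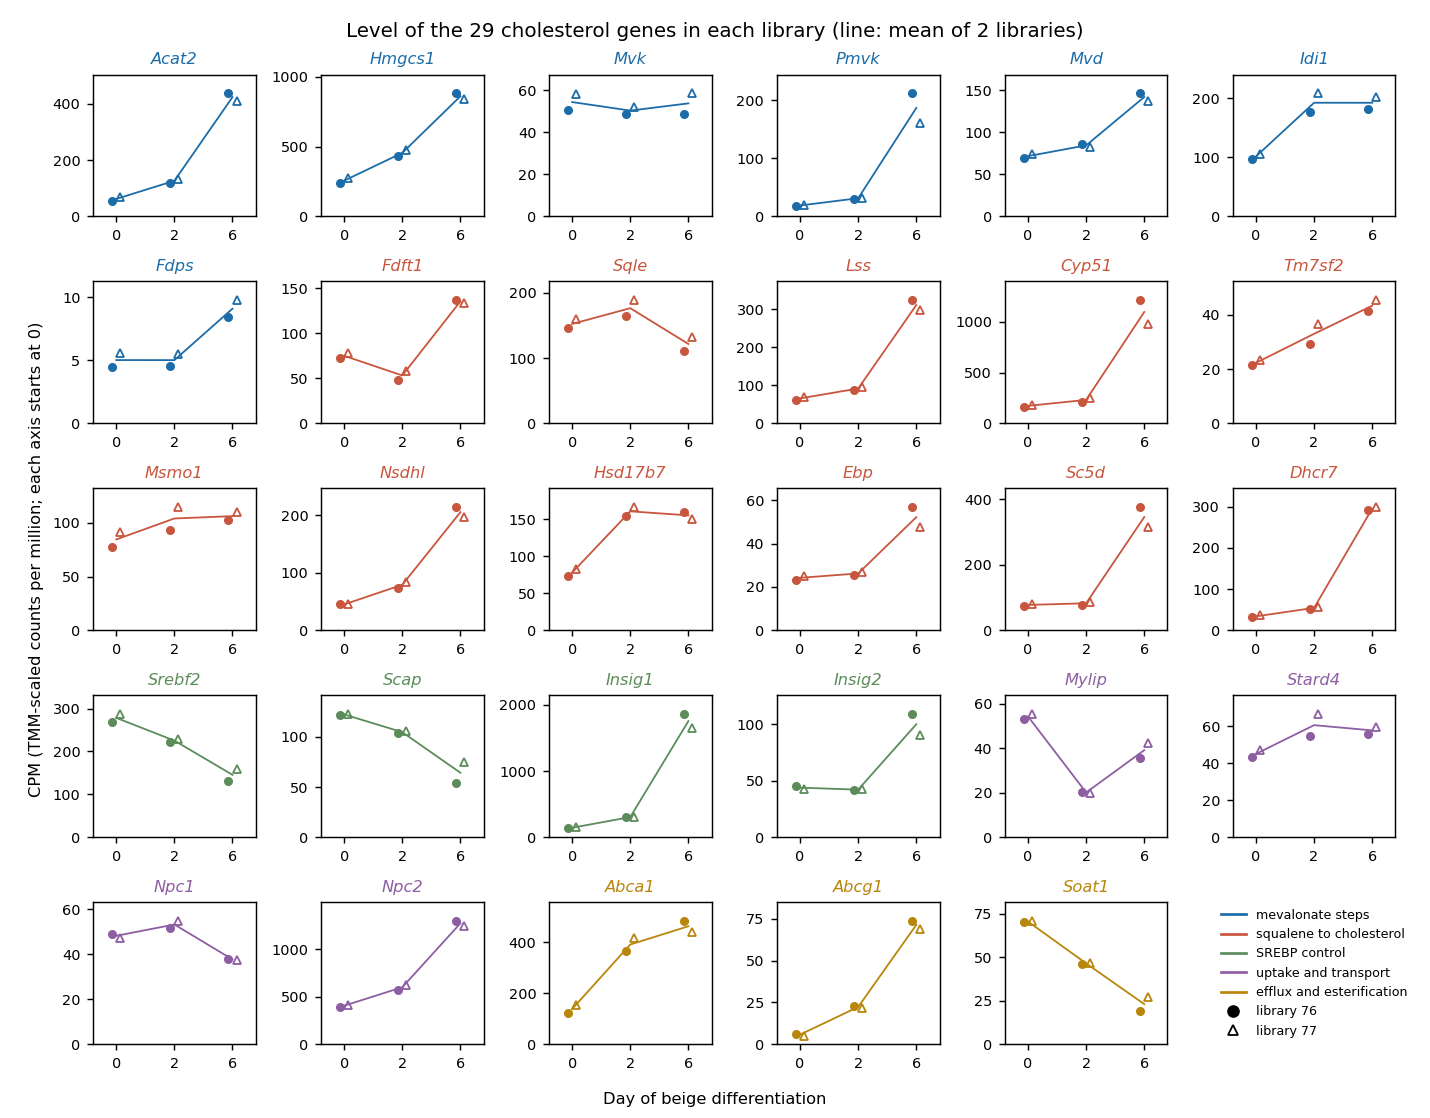
CPM of each of the 29 genes (vertical axes, each from 0) in library 76 (filled circles) and library 77 (open triangles) at days 0, 2 and 6, with a line through the mean of each day, coloured by role. Most enzymes are highest at day 6, while Mvk stays between 48.8 and 58.7 CPM in all 6 libraries and Soat1 and Srebf2 are lowest at day 6.

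The libraries held 22522221 to 29458374 counts in genes, and the reads carry no molecular identifiers, so errors from counting cover counting alone. The labelled course was visible in markers of the cells. Summed CPM of 8 adipocyte markers was 835 to 956 at day 0, 9560 to 10113 at day 2 and 47867 to 56496 at day 6, and all 8 were higher at both later days than at day 0. Summed CPM of 8 progenitor markers was 51200 to 58677 at day 0, 17690.0 to 18938 at day 2 and 5294 to 8185 at day 6, and 7 of 8 were lower at both later days than at day 0. Most of that sum at day 0 came from Col1a1 (30747 and 26130 CPM) and Col3a1 (26293 and 23313 CPM). Division markers were higher at day 2 than at day 0 in 10 of 10 cases (1289 to 1368 against 351 to 364 CPM in sum) and lower at day 6 than at day 2 in 10 of 10 (148 to 177 CPM at day 6). Endothelial markers summed to 31.1 to 35.9 CPM at day 0, 6.65 to 6.94 at day 2 and 12.6 to 16.0 at day 6, with all 6 tested of 8 lower at both later days than at day 0 and Cldn5 at 0 in library 77 of days 2 and 6. Most of the endothelial sum at day 0 came from Tek (22.6 and 20.6 CPM), which had 1.46 and 1.87 CPM at day 2, then 7.68 and 11.5 at day 6. At day 6 against day 2, 1 of the 6 was higher and 1 lower, beside 38.2% and 27.5% of all genes tested. Mural markers summed to 1555 to 1601, 72.8 to 73.5 and 381 to 487 CPM, with Kcnj8 at 0 in library 76 of day 6. Most of the mural sum at day 0 came from Acta2 (1449 and 1418 CPM). Of the 8, 6 and 5 were lower at days 2 and 6 than at day 0, and 3 were higher at day 6 than at day 0. Of all genes tested, 33.6% and 35.1% were lower at days 2 and 6 than at day 0, and 33.6% and 35.9% were higher. The adipocyte sum rose and the progenitor sum fell in both steps, while the division, endothelial and mural sums changed direction after day 2. The rise of the endothelial sum after day 2 came from Tek. The part of these changes in the results below was not tested. In such mixed cultures, fewer cells of a type and less RNA per cell cannot be told apart.

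**Figure D2:**
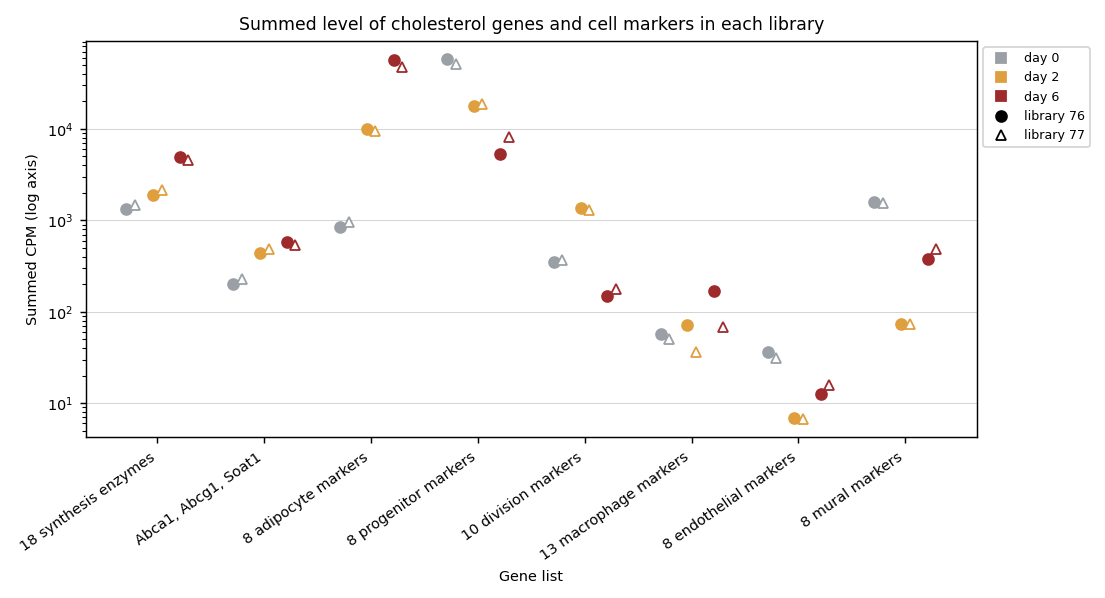
Summed CPM (log axis) of the 18 synthesis enzymes, of Abca1, Abcg1 and Soat1 together, and of each list of cell markers, with 1 symbol per library. The enzyme and adipocyte sums are higher and the progenitor sum is lower at each later day, and the division sum is highest at day 2. At day 0 most of the progenitor sum is Col1a1 and Col3a1, most of the mural sum is Acta2 and most of the endothelial sum is Tek.

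Promoters of the genes were searched for letters that factors of the pathway are known to bind, and RefSeq sequences of GRCm38.p6 were at hand for 23 of the 29. The search covered the 250 bases before each start on both strands. CCAAT, the box bound by NF-Y, a partner of SREBP at many sterol genes, occurred in 20 of the 23 genes (87.0%), in 37.49% of all 27025 genes with a promoter and in 40.35% of the 10396 of them that were tested. The sterol element TCACNCCAC occurred in 1 gene, Hmgcs1, against 1.22% of all genes and 1.26% of those tested. The direct repeat of GGTNA with 5 free bases between its copies, the kind of element LXR binds, occurred in 1 gene, Abca1, against 0.71% of all genes and 0.49% of those tested. The last 150 bases before the start are shown for an early enzyme and a pair of late ones that rose, for the enzyme that did not pass and for the exporter, with each match in capitals; in the other orientation CCAAT reads ATTGG. They lie at chr13:119690201-119690350 (plus strand), chr10:76531455-76531604 (plus), chr5:4104698-4104847 (minus), chr5:114444119-114444268 (plus) and chr4:53159896-53160045 (minus).
Hmgcs1: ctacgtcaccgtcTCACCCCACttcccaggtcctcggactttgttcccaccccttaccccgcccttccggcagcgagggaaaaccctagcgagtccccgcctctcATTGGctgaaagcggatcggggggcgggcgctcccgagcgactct
Lss: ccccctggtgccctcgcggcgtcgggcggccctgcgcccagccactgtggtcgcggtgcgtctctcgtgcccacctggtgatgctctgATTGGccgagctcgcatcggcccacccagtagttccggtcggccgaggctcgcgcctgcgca
Cyp51: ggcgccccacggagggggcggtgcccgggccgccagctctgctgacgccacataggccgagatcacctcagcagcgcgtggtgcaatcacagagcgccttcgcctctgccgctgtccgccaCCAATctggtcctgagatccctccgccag
Mvk: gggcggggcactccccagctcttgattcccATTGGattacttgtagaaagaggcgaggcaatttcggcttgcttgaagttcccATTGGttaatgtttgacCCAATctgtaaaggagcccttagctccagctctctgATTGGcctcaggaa
Abca1: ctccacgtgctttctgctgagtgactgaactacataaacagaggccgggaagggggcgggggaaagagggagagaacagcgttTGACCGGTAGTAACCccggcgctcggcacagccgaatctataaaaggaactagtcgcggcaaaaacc
In Hmgcs1 the sterol element lies 137 bases before the start and a CCAAT box 45 bases before it. Lss and Cyp51 hold 1 box each, 62 and 29 bases before the start. Mvk, whose RNA did not pass in any comparison, holds 4 boxes in these 150 bases, more than Hmgcs1, Lss or Cyp51. The Abca1 stretch holds no CCAAT and has the direct repeat 67 bases before the start. A match describes the letters alone and shows no binding.

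The 7 enzymes of the mevalonate stage carry carbon from acetyl-CoA to farnesyl diphosphate. At day 2, 5 of them were higher than at day 0 and none lower. At day 6, 6 were higher than at day 0 and none lower, and 5 were higher than at day 2. The shares that were higher, 71.4%, 85.7% and 71.4%, compare with 33.6%, 35.9% and 38.2% of all genes tested. Acat2 joins acetyl-CoA units into acetoacetyl-CoA in the cytosol (chr17:12942890-12960747, minus strand, GRCm38 as for all genes here). It had 56.4 and 67.6 CPM at day 0, 118 and 134 at day 2, then 437 and 409 at day 6. The days did not overlap, and the gene was 2.04-fold higher at day 2 than at day 0 (log2 change 1.03, SE 0.11, adjusted p = 5.98e-05 by edgeR's quasi-likelihood test) and 6.83-fold higher at day 6 than at day 0 (log2 change 2.77, SE 0.11, adjusted p = 2.11e-07). Its reads are uncertain, since 39.1% of its 50-base words occur elsewhere among transcripts, in Acat3 and Tcp1. Hmgcs1 makes HMG-CoA from that product (chr13:119690379-119708260, plus). It had 239 and 273 CPM at day 0, 436 and 474 at day 2, then 883 and 837 at day 6, again with no overlap. It rose 1.78-fold at day 2 (log2 change 0.83, SE 0.10) and 3.36-fold at day 6 (log2 change 1.75, SE 0.10), each against day 0 (adjusted p = 0.000107 and 1.29e-06 by edgeR's quasi-likelihood test). Of its exonic bases, 12.1% overlap Gm48342 on the other strand, and no source used here says whether reads were counted by strand.

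Mvk and Pmvk add the first and second phosphates to mevalonate, and they had the smallest and the largest fitted change of the stage at day 6 against day 0. Mvk (chr5:114444269-114460591, plus) had 50.7 and 58.1 CPM at day 0, 48.8 and 51.9 at day 2, then 48.9 and 58.7 at day 6. All 3 days overlapped, and its log2 change had a 95% interval of -0.35 to 0.13 at day 2 against day 0, of -0.26 to 0.23 at day 6 against day 0 and of -0.15 to 0.34 at day 6 against day 2. The sign of its small changes depended on the library left out: the log2 change was 0.14 at day 2 and 0.09 at day 6 against day 0 without library 77 of day 0. In that fit the median of all genes tested was 0.14 at day 2 and 0.00 at day 6 against day 0. Pmvk (chr3:89454541-89469013, plus) had 18.2 and 19.5 CPM at day 0, 30.2 and 32.4 at day 2, then 212 and 161 at day 6. It rose 1.66-fold at day 2 and 9.92-fold at day 6 against day 0 (log2 changes 0.73, SE 0.13, and 3.31, SE 0.14; adjusted p = 0.00141 and 2.25e-07 by edgeR's quasi-likelihood test), the largest rise among the 18 enzymes. Most of that rise came after day 2, at 5.96-fold for day 6 against day 2, and no other enzyme rose as much in that step.

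Mvd, which decarboxylates the doubly phosphorylated product, had 69.8 and 73.7 CPM at day 0, 86.0 and 83.2 at day 2, then 147 and 137 at day 6. It was 1.98-fold higher at day 6 than at day 0 (adjusted p = 4.81e-06 by edgeR's quasi-likelihood test). The 1.18-fold rise at day 2 (log2 change 0.24, adjusted p = 0.0157) lost its call without library 76 of day 0 (adjusted p = 0.136) or library 76 of day 2 (adjusted p = 0.0875), became 0.42 without library 77 of day 0, and ranged over adjusted p of 0.00250 to 0.136. Idi1, which interconverts the C5 building blocks, had 96.7 and 106 CPM at day 0, 176 and 208 at day 2, then 182 and 202 at day 6. It was 1.89-fold higher at day 2 and 1.89-fold higher at day 6 than at day 0 (adjusted p = 8.57e-05 and 7.02e-05 by edgeR's quasi-likelihood test), and between day 6 and day 2 the log2 change had an interval of -0.24 to 0.23. Library totals made that last change -0.36, with a call (adjusted p = 0.0214 over a range of 0.0214 to 1.00), and 25.3% of Idi1 50-base words occur elsewhere. Fdps, which makes farnesyl diphosphate, was low, with 4.47 and 5.56 CPM at day 0, 4.56 and 5.47 at day 2, then 8.40 and 9.78 at day 6. It was 1.82-fold higher at day 6 than at day 0 (adjusted p = 0.00242 by edgeR's quasi-likelihood test), and at day 2 against day 0 its log2 change had an interval of -0.41 to 0.42. Of its exonic bases 26.7% overlap Gm43738, and 26.2% of its 50-base words occur elsewhere, among other genes in Gm43738.

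The 11 enzymes from squalene synthesis onward make the sterol itself. At day 2, 7 of them were higher and 1 lower than at day 0. At day 6, 10 were higher and 1 lower than at day 0. Against day 2, 8 were higher and 1 lower at day 6, or 7 and 3 with library totals. The shares that were higher, 63.6%, 90.9% and 72.7%, compare with 33.6%, 35.9% and 38.2% of all genes tested. The share that was lower, 9.1% each time, compares with 33.6%, 35.1% and 27.5%. Squalene synthase, Fdft1, had 72.0 and 77.9 CPM at day 0, 47.8 and 58.6 at day 2, then 137 and 134 at day 6. It was lowest at day 2, 1.41-fold lower than at day 0 (log2 change -0.49, adjusted p = 0.00238 by edgeR's quasi-likelihood test), and 2.55-fold higher at day 6 than at day 2 (adjusted p = 7.74e-06). The fall lost its call without library 77 of day 0 (log2 change -0.29, adjusted p = 0.0867 over a range of 5.15e-07 to 0.0867). Also, 18.3% of Fdft1 exonic bases overlap Ctsb on the other strand, and 26.5% of its 50-base words occur elsewhere.

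Sqle, squalene epoxidase, a rate-limiting step of the late pathway (chr15:59315077-59331192, plus), was the only one of the 18 enzymes called lower at day 6. It had 146 and 159 CPM at day 0, 164 and 189 at day 2, then 111 and 132 at day 6, so that day 6 lay below both other days without overlap. Against day 2 it fell 1.45-fold at day 6 (log2 change -0.54, SE 0.11, adjusted p = 0.00245 by edgeR's quasi-likelihood test), and the log2 change was -0.89 with library totals. Against day 0 it fell 1.25-fold at day 6 (log2 change -0.32, adjusted p = 0.0253), a call lost without library 77 of day 0 (adjusted p = 0.156) or library 76 of day 6 (log2 change -0.20, adjusted p = 0.101), over a range of 0.00145 to 0.156. With library totals that change was -0.57. At day 2 against day 0 the log2 change was 0.21 (interval -0.03 to 0.46, adjusted p = 0.111 by edgeR's quasi-likelihood test), and with a block for the replicate number it passed at the same size (adjusted p = 0.0269). It also passed with library totals, with no filter on low counts, in a fit of the 4 libraries alone and without library 77 of day 0 or either library of day 6, over a range of 0.0269 to 0.451.

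Lss and Cyp51, the next enzymes, fold squalene epoxide into lanosterol and remove its C14 methyl group. Lss (chr10:76531588-76557138, plus) had 61.5 and 69.8 CPM at day 0, 87.5 and 95.7 at day 2, then 324 and 298 at day 6. It rose 1.40-fold at day 2 and 4.74-fold at day 6 against day 0 (log2 changes 0.48 and 2.24, SE 0.09 each; adjusted p = 0.00177 and 2.56e-07 by edgeR's quasi-likelihood test). Cyp51 (chr5:4081145-4104746, minus) had 165 and 179.8 CPM at day 0, 211 and 251 at day 2, then 1215 and 978 at day 6. It rose 6.35-fold at day 6 against day 0 (log2 change 2.67, SE 0.14, adjusted p = 7.46e-07 by edgeR's quasi-likelihood test), with day 6 far above both other days. Its 1.34-fold rise at day 2 against day 0 (adjusted p = 0.0186) lost its call without library 76 of day 0 (adjusted p = 0.118) or library 77 of day 2 (adjusted p = 0.135), over a range of 1.91e-05 to 0.135.

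Of the reductases and demethylases that follow, Nsdhl, Dhcr7 and, less firmly in the later step, Tm7sf2 were called higher in both steps. Nsdhl, a decarboxylating dehydrogenase of the C4 demethylation complex, had 45.0 and 45.2 CPM at day 0, 73.6 and 84.8 at day 2, then 214 and 196 at day 6, a rise of 4.55-fold at day 6 against day 0 (log2 change 2.19, SE 0.09, adjusted p = 2.25e-07 by edgeR's quasi-likelihood test). Dhcr7 (chr7:143823145-143848410, plus), which reduces 7-dehydrocholesterol to cholesterol in the last step, had 31.7 and 36.0 CPM at day 0, 51.2 and 57.7 at day 2, then 291 and 299 at day 6. It rose 8.71-fold at day 6 against day 0 (log2 change 3.12, SE 0.10, adjusted p = 5.40e-08), with no overlap between days. Sc5d and Ebp, a desaturase and an isomerase of earlier steps, had no call at day 2 against day 0 and were higher at day 6 than at day 2. Sc5d had 74.4 and 81.0 CPM at day 0, 78.7 and 86.7 at day 2, then 377 and 315 at day 6, 4.19-fold higher at day 6 than at day 2 (log2 change 2.07, SE 0.11, adjusted p = 1.22e-06 by edgeR's quasi-likelihood test). Ebp had 23.3 and 25.2 CPM at day 0, 25.6 and 26.9 at day 2, then 56.9 and 47.5 at day 6, 1.99-fold higher at day 6 than at day 2 (log2 change 0.99, or 0.63 with library totals; adjusted p = 4.83e-05). At day 2 against day 0 their log2 changes had intervals of -0.15 to 0.33 for Sc5d and -0.12 to 0.35 for Ebp.

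Hsd17b7, the keto-reductase of C4 demethylation, rose by day 2 and its libraries of days 2 and 6 overlapped. It had 72.9 and 83.0 CPM at day 0, 155 and 166 at day 2, then 159 and 151 at day 6. It was 2.06-fold higher at day 2 than at day 0 (log2 change 1.04, SE 0.09, adjusted p = 1.66e-05 by edgeR's quasi-likelihood test), and between day 6 and day 2 the log2 change had an interval of -0.24 to 0.15, or was -0.41 with a call under library totals (adjusted p = 0.00329 over a range of 0.00329 to 0.977). Msmo1, the C4 methyl oxidase, had 77.7 and 91.5 CPM at day 0, 93.4 and 115 at day 2, then 102 and 110.2 at day 6. Its rises of 1.23-fold at day 2 and 1.26-fold at day 6 against day 0 (adjusted p = 0.0477 and 0.0319 by edgeR's quasi-likelihood test) had the highest adjusted p of the enzymes' calls in both comparisons. The day 2 call was lost without library 76 of day 0 (adjusted p = 0.296) or library 77 of day 2 (adjusted p = 0.297), while without library 77 of day 0 the log2 change of 0.30 became 0.57, over a range of adjusted p of 0.00159 to 0.297. The day 6 call was lost with library totals (adjusted p = 0.561), with DESeq2 (adjusted p = 0.0681), without library 76 of day 0 (adjusted p = 0.222) and without library 77 of day 6 (adjusted p = 0.0643), the lowest value being 0.000637. The log2 change of Msmo1 at day 6 against day 2 was 0.03, and -0.33 with library totals (adjusted p = 0.0444). Tm7sf2, a C14 sterol reductase, had 21.5 and 23.2 CPM at day 0, 29.3 and 36.8 at day 2, then 41.3 and 45.5 at day 6, 1.94-fold higher at day 6 than at day 0 (adjusted p = 0.000127 by edgeR's quasi-likelihood test). Its 1.31-fold rise at day 6 against day 2 (log2 change 0.39, adjusted p = 0.0162 over a range of 0.000375 to 0.799) lost its call with library totals (log2 change 0.04), with DESeq2 (adjusted p = 0.0765) and in a fit of those 4 libraries alone (adjusted p = 0.0883). It was also lost without library 77 of day 0 (adjusted p = 0.101) or library 76 of day 2 (adjusted p = 0.114), with log2 changes of 0.26 and 0.24, and 12.1% of Tm7sf2 exonic bases overlap Vps51.

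**Figure D3:**
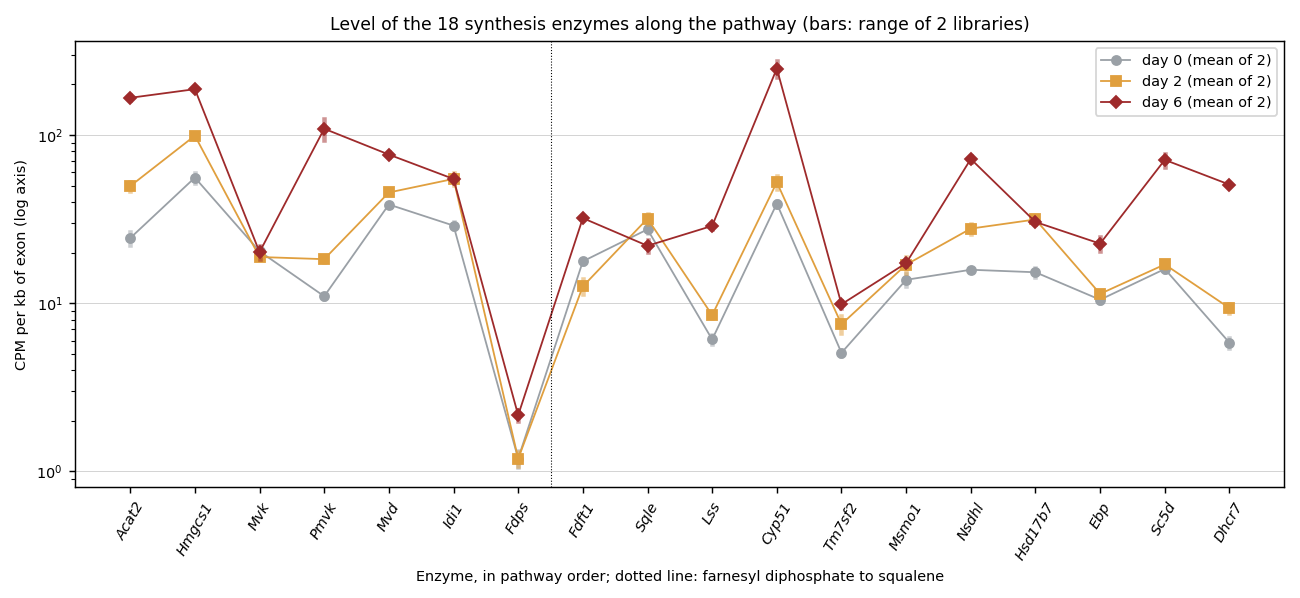
Mean CPM per kb of exon (log axis) of the 18 synthesis enzymes in pathway order at days 0, 2 and 6, with bars for the range of the 2 libraries. The day 6 line lies far above the others at Acat2, Pmvk, Lss, Cyp51, Nsdhl, Sc5d and Dhcr7, meets them at Mvk and lies below them at Sqle.

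The fitted changes spread widely along the pathway. The 18 together summed to 1401 ± 105 CPM at day 0, 2037 ± 171 at day 2 and 4734 ± 302 at day 6 (SD, n = 2). At day 6 against day 0 their log2 changes ran from -0.32 (Sqle) to 3.31 (Pmvk), with a median of 1.05. At day 2 against day 0 they ran from -0.49 (Fdft1) to 1.04 (Hsd17b7), with a median of 0.45. All genes tested had medians of -0.01 and 0.00 in these comparisons. Per kb of exon, Cyp51 was the most abundant enzyme at day 6 with 248 ± 37.9 CPM per kb, followed by Hmgcs1 with 187 ± 7.07 and Acat2 with 166 ± 7.98. At day 0 Hmgcs1 led with 55.8 ± 5.18 CPM per kb, followed by Cyp51 with 39.1 ± 2.29 and Mvd with 38.6 ± 1.49, the last pair lying within their spread. Fdps had the lowest counted level of the enzymes on every day, with 1.19 ± 0.183 CPM per kb at day 0 and 2.16 ± 0.231 at day 6. Its place is uncertain, since 26.7% of its exonic bases overlap Gm43738 and 26.2% of its 50-base words occur elsewhere. The same holds for Acat2, with 39.1% of its 50-base words found elsewhere. The division by exonic length takes no account of such bases.

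The controllers of SREBP moved in opposite directions. Insig1, which retains SCAP in the endoplasmic reticulum and is itself a known SREBP target (chr5:28071363-28078662, plus), had 139 and 149 CPM at day 0, 302 and 309 at day 2, then 1862 and 1644 at day 6. It rose 2.12-fold at day 2 and 12.2-fold at day 6 against day 0 (log2 changes 1.09 and 3.61, SE 0.10 each; adjusted p = 2.34e-05 and 4.21e-08 by edgeR's quasi-likelihood test). Per kb of exon it was the highest of the 29 genes at day 6, at 567 ± 49.7 CPM per kb. Its relative Insig2 had 45.4 and 42.4 CPM at day 0, 41.8 and 42.5 at day 2, then 109 and 90.9 at day 6. Insig2 rose 2.37-fold at day 6 against day 2 (adjusted p = 8.84e-06 by edgeR's quasi-likelihood test), and its log2 change at day 2 against day 0 had an interval of -0.28 to 0.16.

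Srebf2 and Scap were lower at the end of the course. Srebf2, which encodes SREBP-2 (chr15:82147181-82205379, plus), had 269 and 287 CPM at day 0, 222 and 229 at day 2, then 131 and 160.1 at day 6. At day 6 it was 1.91-fold lower than at day 0 and 1.55-fold lower than at day 2 (log2 changes -0.94 and -0.63, SE 0.10 each; adjusted p = 6.19e-05 and 0.000747 by edgeR's quasi-likelihood test), and the change against day 2 was -0.99 with library totals. The days did not overlap, but the 1.23-fold fall at day 2 (adjusted p = 0.0271, range 0.00168 to 0.522) was lost with library totals (adjusted p = 0.180), with DESeq2 (adjusted p = 0.0557), and without library 76 or 77 of day 0 (adjusted p = 0.0623 and 0.522) or either library of day 2 (adjusted p = 0.140 and 0.0968). Without library 77 of day 0, where the median of all genes tested was 0.14, the log2 change of -0.30 was -0.11. Scap, the escort of SREBP, had 122 and 123 CPM at day 0, 104 and 106 at day 2, then 53.9 and 74.6 at day 6. It was 1.91-fold lower at day 6 than at day 0 and 1.63-fold lower than at day 2 (adjusted p = 0.000264 and 0.00153 by edgeR's quasi-likelihood test). The log2 change against day 2 was -0.71, or -1.06 with library totals, and 13.2% of its exonic bases overlap 5830462I19Rik. At day 2 against day 0 its log2 change was -0.22 (interval -0.52 to 0.07, adjusted p = 0.150). It passed there with no filter on low counts (adjusted p = 0.0404), in a fit of those 4 libraries alone (adjusted p = 0.00432) and without library 76 or 77 of day 6 (adjusted p = 0.00516 and 0.00575), over a range of 0.00432 to 0.743.

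**Figure D4:**
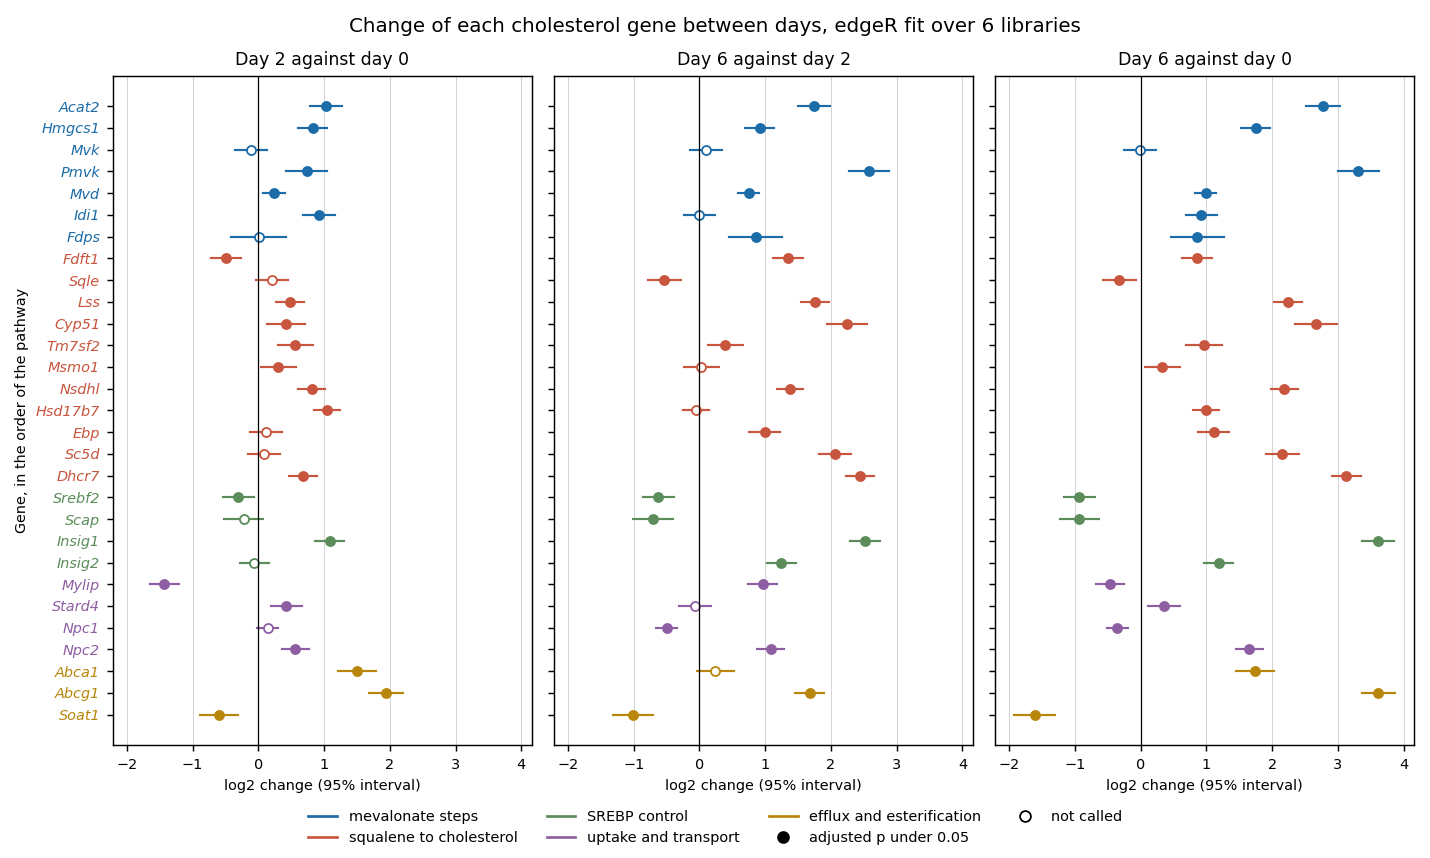
Log2 change of each of the 29 genes (points) with its 95% interval (bars) at day 2 against day 0, day 6 against day 2 and day 6 against day 0, from the edgeR fit over 6 libraries. Filled points passed an adjusted p of 0.05; Insig1 and Abcg1 lie farthest to the right at day 6 against day 0, at 3.61 and 3.62, and Soat1 farthest to the left at -1.61.

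Of the 4 genes of uptake and transport, 2 were higher and 2 lower at day 6 than at day 0. Of all genes tested, 35.9% were higher and 35.1% lower in that comparison. Mylip, also called IDOL, a ubiquitin ligase that marks lipoprotein receptors for breakdown, had 53.2 and 55.5 CPM at day 0, 20.5 and 19.7 at day 2, then 35.8 and 42.6 at day 6. It fell 2.70-fold at day 2 against day 0 (log2 change -1.43, SE 0.10, adjusted p = 5.60e-06 by edgeR's quasi-likelihood test) and was then 1.94-fold higher at day 6 than at day 2 (log2 change 0.96, or 0.60 with library totals), still 1.39-fold lower than at day 0 (log2 change -0.47, or -0.72 with library totals). The lowest level thus lay at day 2, with no overlap between days. Npc2, the soluble lysosomal protein that hands cholesterol to the membrane protein NPC1, had 396 and 415 CPM at day 0, 575 and 625 at day 2, then 1297 and 1247 at day 6. It rose 3.14-fold at day 6 against day 0 (log2 change 1.65, SE 0.09, adjusted p = 1.06e-06 by edgeR's quasi-likelihood test). Its partner Npc1 had 49.2 and 47.2 CPM at day 0, 51.7 and 54.9 at day 2, then 38.0 and 37.5 at day 6. Npc1 fell 1.28-fold at day 6 against day 0 and 1.41-fold against day 2 (adjusted p = 0.00194 and 0.000313 by edgeR's quasi-likelihood test), so the partners moved in opposite directions at day 6. With library totals those log2 changes of -0.35 and -0.50 were -0.60 and -0.86. The log2 change of Npc1 at day 2 against day 0 was 0.14 (interval -0.01 to 0.30), and it passed with the size factors of DESeq2 (adjusted p = 0.0423) and with library totals (adjusted p = 0.0116), over a range of 0.0116 to 0.309.

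Stard4, a soluble sterol carrier, had 43.1 and 46.9 CPM at day 0, 54.4 and 66.5 at day 2, then 55.7 and 59.6 at day 6. It was 1.34-fold higher at day 2 and 1.28-fold higher at day 6 than at day 0 (adjusted p = 0.00624 and 0.0142 by edgeR's quasi-likelihood test). Both calls were lost without library 76 of day 0 (adjusted p = 0.0566, the highest for day 2 from a lowest of 7.10e-06, and 0.101 for day 6), and the day 6 call with library totals (log2 change 0.11 in place of 0.36, adjusted p = 0.387 over a range of 0.000292 to 0.387). Its log2 change at day 6 against day 2 was -0.07 (interval -0.31 to 0.17), and -0.43 with a call under library totals (adjusted p = 0.00875 over a range of 0.00875 to 0.888).

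Both exporters rose and the esterifying enzyme fell. Abca1, which loads cholesterol onto lipid-poor apolipoprotein A-I (chr4:53030787-53159895, minus), had 122 and 154 CPM at day 0, 367 and 414 at day 2, then 483 and 441 at day 6. It rose 2.83-fold at day 2 and 3.35-fold at day 6 against day 0 (intervals of the log2 change 1.21 to 1.79 and 1.45 to 2.03; adjusted p = 1.76e-05 and 5.41e-06 by edgeR's quasi-likelihood test). Between day 6 and day 2 its log2 change was 0.24 (interval -0.04 to 0.52, adjusted p = 0.113), -0.12 with library totals, and past the threshold with no filter on low counts (adjusted p = 0.0299 over a range of 0.0299 to 0.442). Abcg1, which passes cholesterol on to formed HDL (chr17:31057675-31117988, plus), had 6.42 and 5.15 CPM at day 0, 22.9 and 21.8 at day 2, then 73.9 and 69.1 at day 6. It rose 3.84-fold at day 2 and 12.3-fold at day 6 against day 0, and 3.20-fold at day 6 against day 2 (log2 changes 1.94, 3.62 and 1.68, SE 0.11, 0.11 and 0.10; adjusted p = 2.92e-06, 5.51e-08 and 2.18e-06 by edgeR's quasi-likelihood test). Its rise at day 6 was the largest of the 29 genes beside that of Insig1, and the days did not overlap. Soat1, which stores cholesterol as esters, had 70.2 and 71.0 CPM at day 0, 46.3 and 46.8 at day 2, then 19.2 and 27.0 at day 6. It fell 3.06-fold at day 6 against day 0 (log2 change -1.61, SE 0.13, adjusted p = 1.18e-05 by edgeR's quasi-likelihood test), the largest fall of the 29 in that comparison. Its 1.52-fold fall at day 2 against day 0 (log2 change -0.60, adjusted p = 0.00298) lost its call without library 77 of day 0 (log2 change -0.45, adjusted p = 0.0562 over a range of 8.71e-10 to 0.0562).

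Macrophages also express these exporters and Soat1, and their markers were measured beside them. The 13 macrophage markers summed to 57.6 and 49.7 CPM at day 0, 70.9 and 36.6 at day 2, then 168 and 67.9 at day 6. Of the 11 tested, 7 were higher at day 6 than at day 0 and none lower, 5 were higher at day 6 than at day 2, and 1 was lower at day 2 than at day 0. The shares higher at day 6, 63.6% against day 0 and 45.5% against day 2, compare with 35.9% and 38.2% of all genes tested. With library totals 3 were higher at day 6 than at day 0 and 3 at day 6 than at day 2, and with a replicate block 1 was higher and 2 lower at day 2 than at day 0. Fcgr1 and Cd163 were at 0 in library 77 of day 2. At day 6, where library 76 had the higher marker sum, Abcg1 had 73.9 CPM in library 76 and 69.1 in library 77. Abca1 had 483 and 441 CPM in these libraries, and Soat1 had 19.2 and 27.0. The part of these cells in the levels of Abca1, Abcg1 and Soat1 was not tested.

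A further 52 genes of the pathway were tested. At day 2, 23 were higher and 14 lower than at day 0; at day 6, 26 were higher and 10 lower than at day 0; and 30 were higher and 10 lower at day 6 than at day 2, with median log2 changes of 0.11, 0.24 and 0.42 beside 0.00, -0.01 and 0.12 over all genes tested. The shares that were higher, 44.2%, 50% and 57.7%, compare with 33.6%, 35.9% and 38.2% of all genes tested, and the shares that were lower, 26.9%, 19.2% and 19.2%, with 33.6%, 35.1% and 27.5%. With library totals the last counts became 19 higher and 17 lower, those of day 6 against day 0 became 24 and 16 with a median of -0.01, and those of day 2 against day 0 became 28 and 10. The 14 lower genes at day 2 became 8 with DESeq2, 9 without library 76 of day 0 or of day 2, and 6 without library 77 of day 0. Among the 7 further genes of synthesis and its acetyl-CoA supply, 4 were higher and 1 lower at day 6 than at day 0, or 5 and 2 with a replicate block and 4 and 2 with library totals. The shares of 57.1% higher and 14.3% lower compare with 35.9% and 35.1% of all genes tested. Acss2, which makes cytosolic acetyl-CoA from acetate, had 20.2 and 22.3 CPM at day 0, 40.5 and 44.9 at day 2, then 874 and 682 at day 6, a rise of 36.6-fold at day 6 against day 0. Acly, which makes it from citrate, had 399 and 425 CPM at day 0, 642 and 680.3 at day 2, then 4558 and 3241 at day 6, a rise of 9.47-fold, and Acat1, the mitochondrial acetoacetyl-CoA thiolase, was 6.20-fold higher. Over all further genes named for day 6 against day 0, the highest adjusted p was 0.00417 by edgeR's quasi-likelihood test, that of Ch25h.

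Of 8 genes of isoprenoid branches, 5 were higher at day 6 than at day 0, a share of 62.5% beside 35.9% of all genes tested. Among them, Cox10, which attaches a farnesyl group to heme on the way to heme A, was 4.71-fold higher. Nus1, a subunit of the dolichol-making enzyme, was 3.38-fold higher, and Pdss2, which builds the tail of coenzyme Q, 4.18-fold. Of 9 further SREBP controllers, 2 were higher and 3 lower at day 6 than at day 0, or 5 lower with library totals; the shares of 22.2% higher and 33.3% lower lie below the 35.9% and 35.1% of all genes tested. Srebf1, the sister of Srebf2 that favours fatty acid synthesis, had 158 and 152 CPM at day 0, 396 and 342 at day 2, then 1112 and 1048 at day 6. It rose 6.97-fold at day 6 against day 0 (log2 change 2.80, adjusted p = 1.19e-07 by edgeR's quasi-likelihood test), in the comparison where Srebf2 fell 1.91-fold. Erlin1, a membrane protein of the endoplasmic reticulum, was 1.67-fold lower at day 6 than at day 0, and Tmem97, which binds NPC1, was 1.91-fold higher, with 20.8% of its 50-base words found elsewhere. Of 7 receptors, 2 were higher and 2 lower at day 6 than at day 0, or 4 lower with library totals, and both shares of 28.6% lie below those of all genes tested. Scarb1, the HDL receptor, had 27.7 and 32.0 CPM at day 0, 55.8 and 53.4 at day 2, then 356 and 355 at day 6, 11.9-fold higher at day 6 than at day 0. Vldlr, the VLDL receptor, was 3.97-fold higher, and Lrp1, a receptor of remnant lipoproteins, was 3.54-fold lower.

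Of 9 further genes of transport inside the cell, 7 were higher and 1 lower at day 6 than at day 0, or 7 and none with a replicate block. The shares of 77.8% higher and 11.1% lower compare with 35.9% and 35.1% of all genes tested. Gramd1b, which carries cholesterol from the plasma membrane to the endoplasmic reticulum, was 9.85-fold higher, Cav1, the coat protein of cholesterol-rich caveolae, 11.7-fold higher and Stard5, a sterol carrier with 23.9% of its exonic bases overlapping other genes, 2.34-fold higher. Of 8 further genes of efflux, LXR and ester breakdown, 5 were higher and 1 lower at day 6 than at day 0, or 2 lower with library totals. Those calls were 62.5% and 12.5% of the list, beside the same 35.9% and 35.1%. Nr1h3, which encodes LXR alpha, had 8.15 and 7.83 CPM at day 0, 23.9 and 19.6 at day 2, then 165 and 147 at day 6, 19.5-fold higher at day 6 than at day 0 (log2 change 4.28, adjusted p = 3.65e-08 by edgeR's quasi-likelihood test). Lipe, hormone-sensitive lipase, which also splits cholesterol esters, was 138-fold higher, with 15.6% of its exonic bases overlapping 4732471J01Rik. Lpcat3, a phospholipid enzyme, was 10.4-fold higher, with 10.2% of its exonic bases overlapping Emg1. Of 4 enzymes of oxysterol formation and clearance, 1 was higher and 2 lower at day 6 than at day 0, beside 35.9% and 35.1% of all genes tested. Cyp27a1, the sterol 27-hydroxylase, was 4.29-fold higher, with 1.42 and 1.61 CPM at day 0, 1.39 and 1.04 at day 2, then 7.24 and 5.74 at day 6, while Cyp7b1, which clears oxysterols, was 3.74-fold lower. Cyp7b1 differed widely within days 2 and 6, with 51.3 and 63.4 CPM at day 0, 27.4 and 54.9 at day 2, then 9.69 and 21.1 at day 6, and its log2 change of -1.90 was -2.55 without library 77 of day 6 and -1.43 without library 76 of day 6. Ch25h, the 25-hydroxylase, was 3.83-fold lower and under 1 CPM in every library, with 11.5% of its exonic bases overlapping Gm26902.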

How the data were processed

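RNA was measured by poly(A)-selected sequencing in 6 libraries, 2 for each of 3 days. Per the submitters' processing notes, TopHat2 2.0.13 and HTSeq 0.9.1 were used with builds mm10 and GRCm38; no source used here gives settings, annotation or strand. The deposited table holds 1 column of raw read counts per library, although its column names say RPKM: the values are whole numbers and end in 5 HTSeq summary lines, which were left out of tests; 4.16% to 9.05% of alignments had been set aside as not unique. No column lacked a sample.

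Counts were tested in R 4.3.3 with edgeR 4.0.16 (quasi-likelihood F test, TMM, filterByExpr, Benjamini-Hochberg adjustment over 14459 of 45808 genes, threshold 0.05), in 1 fit with a mean per day and 3 residual degrees of freedom. All 29 genes passed the filter. The steps were also run on simulated counts in which few genes changed. In these data 65.7% to 70.9% of genes were called in each comparison, so that run does not check the scaling. CPM per kb divides by the merged exonic length of GENCODE M21, on which overlaps and shared 50-base words were also measured. Counts of same-day libraries differed beyond sampling noise (chi-square per degree of freedom 6.75, 7.53 and 26.3 at days 0, 2 and 6).

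The main fit held no term for the numbers 76 and 77, which paired the libraries only in the alternative with a replicate block. Deviations from day means correlated over 14459 genes at r = 0.109 (days 0 and 2), 0.112 (days 0 and 6) and 0.213 (days 2 and 6). Each lay above 0.1, the limit set for pairing, though no source used here says what the numbers mark. By that limit the libraries counted as paired, yet the main p-values, SEs and intervals come from the fit without pairing. Alternatives were the size factors of DESeq2, library totals, no filter, DESeq2 1.42.0, the replicate block, the 4 libraries of a pair of days and each library left out. All 29 genes are named; of the further pathway genes, the 3 of each list with the lowest joint p are named. Genes, lists and tests were chosen with earlier results of these data known.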

Additional observations from a re-analysis of the deposited data

How the results depend on the processing

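Over 1044 values (29 genes, 3 comparisons, 12 alternatives), 976 kept their direction and side of the threshold, 28 lost a call, 17 gained one without a change of sign, and 23 changed sign. None of the 23 was called under the settings of the report, and 1 of them, Msmo1 at day 6 against day 2 with library totals, was called after its sign changed. At day 2 against day 0, leaving out single libraries gave log2 changes of -0.21 to 0.14 for Mvk, -0.15 to 0.31 for Fdps and -0.056 to 0.041 for Insig2, which was 0.053 with library totals. At day 6 against day 0 Mvk ranged from -0.14 to 0.12. At day 6 against day 2 the ranges were -0.043 to 0.22 for Mvk, -0.14 to 0.12 for Idi1, -0.12 to 0.18 for Msmo1 and -0.21 to 0.074 for Stard4. Library totals turned Mvk (-0.26), Msmo1 (-0.33) and Abca1 (-0.12) there, the 4 libraries alone Mvk (-0.036) and Msmo1 (-0.10), the size factors of DESeq2 and DESeq2 itself Msmo1 (-0.040 and -0.049), and the replicate block Idi1 (0.0026). Leaving out single libraries gave 13 to 18 genes higher and 1 to 5 lower at day 2 against day 0, the 1 without library 77 of day 0; 20 to 22 and 5 to 6 at day 6 against day 0; and 17 to 18 and 5 at day 6 against day 2. Library totals gave 9 lower of the 29 at day 6 against day 2, where TMM gave 5; over all genes they gave 3650 higher and 6182 lower, where TMM gave 5520 and 3981. They also gave 3967 higher and 6476 lower over all genes at day 6 against day 0 (TMM 5184 and 5069), and 5556 and 4150 at day 2 against day 0 (TMM 4853 and 4851). With a block for the replicate number 18 genes were higher and 4 lower, 22 and 6, and 18 and 5; beside Sqle at day 2 the block changed no call among the 29, and it gave 23 and 15, 27 and 10, and 30 and 11 of the further 52. Without the 7 genes whose exons overlap another gene or share 50-base words by over 10%, an alternative added after seeing the data, 13 were higher and 3 lower of 22 at day 2 against day 0, 16 and 5 at day 6 against day 0, and 13 and 4 at day 6 against day 2. The same alternatives for the further pathway genes were added then too. The cause of these changes was not tested.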
